A study of Mus musculus with 8 samples.

Results

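Laminins, nidogens, perlecan, fibronectin, the integrins and the proteins that tie integrins to actin were examined in the quadriceps muscle of mice with a head and neck carcinoma. Members were chosen by gene symbol: laminin chains (Lama, Lamb and Lamc with 1 digit), integrin chains with a numbered name (Itga and Itgb), Nid1, Nid2, Hspg2, Fn1, Tln1, Tln2, Vcl, Ilk, Parva, Lims1 and Fermt2, each with a summed count of at least 80 over the 8 libraries. Of 53819 symbols in the table, 41 matched by name and 39 reached that sum. Itga2 (summed count 95) and Itga10 (summed count 152) lay just inside it, and Itgb8 (28) and Lama1 (5) just outside. Integrin alpha chains named by a letter were not part of the set.

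The tumor group was 4 wild-type C57BL/6J mice given 500000 cells of the squamous carcinoma line B0092 under the skin of the neck, and the control group was 4 wild-type C57BL/6J mice given saline (PBS) alone. Mice were 8 weeks old at the start, and muscle was taken on day 36, when tumor mice had lost about 10% of their weight per the series description. B0092 is 1 line, so the tumor group stands for a single carcinoma, and the sex of the mice was not given in the sources used here. Each mouse gave 1 messenger RNA library.

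Libraries held 28436205 to 36139462 counts, and the 39 members made up 0.139% to 0.218% of them in tumor mice and 0.157% to 0.168% in controls. Markers of muscle fibres summed to between 105548 and 214118 in tumor libraries and between 142750 and 204620 in controls, as library-scaled counts per 1000000 counts (CPM). Of 8 squamous epithelial markers, Krt5, Krt14, Krt6a and Dsg3 had 0 counts in all 8 libraries. The summed level of the 8 was 17.4 to 38.4 CPM in tumor libraries and 7.62 to 10.6 CPM in controls, nearly all of it Trp63, which rose, and its part in the results was not tested. The log2 ratio of the fast myosin gene Myh4 to the other adult myosin genes was lowest in tumor library 2 (2.03) among tumor libraries and in control library 4 (0.87) among controls.

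Laminins are trimers of an alpha, a beta and a gamma chain that polymerise into the sheet of the basement membrane. Nidogens and the heparan sulfate proteoglycan perlecan (Hspg2) link this sheet to the type IV collagen network. Integrins are pairs of an alpha and a beta chain that bind matrix outside the cell and, through talin, kindlin and the kinase-like protein ILK, actin inside it. In skeletal muscle the fibre is wrapped in a basement membrane rich in the laminin alpha 2 chain, and the alpha 7 beta 1 integrin binds it. Capillary basement membranes carry the alpha 4 and alpha 5 chains.

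In tumor mice, 5 members fell and 1 rose, and the other 33 did not pass. Itgb6 (the integrin beta 6 chain) fell 4.48-fold, Lama4 (the laminin alpha 4 chain) 2.24-fold, Nid1 (nidogen 1) 1.88-fold, Hspg2 (perlecan) 1.70-fold and Itga6 (the integrin alpha 6 chain) 1.59-fold. Lama5 (the laminin alpha 5 chain) rose 1.55-fold. In bulk muscle, fewer cells of a type and less RNA per cell cannot be told apart. A change means an adjusted p under 0.05 in the edgeR quasi-likelihood test, with Benjamini-Hochberg adjustment over all 14070 genes tested. All 39 members were among the genes tested. The 6 called members are 15.4% of the 39, against 19.8% called over all genes, so the share of changed members was near the background. By direction, 11.0% of all genes rose and 8.73% fell. The median log2 fold change of the members was -0.40, beside 0.00 over all genes tested, and 27 of 39 were below 0. Of the calls over all genes 55.8% were higher in tumor mice, and 43.0% with upper-quartile scaling. Under that scaling 1 member rose and 6 fell, with 19.3% of all genes called.

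**Figure D1:**
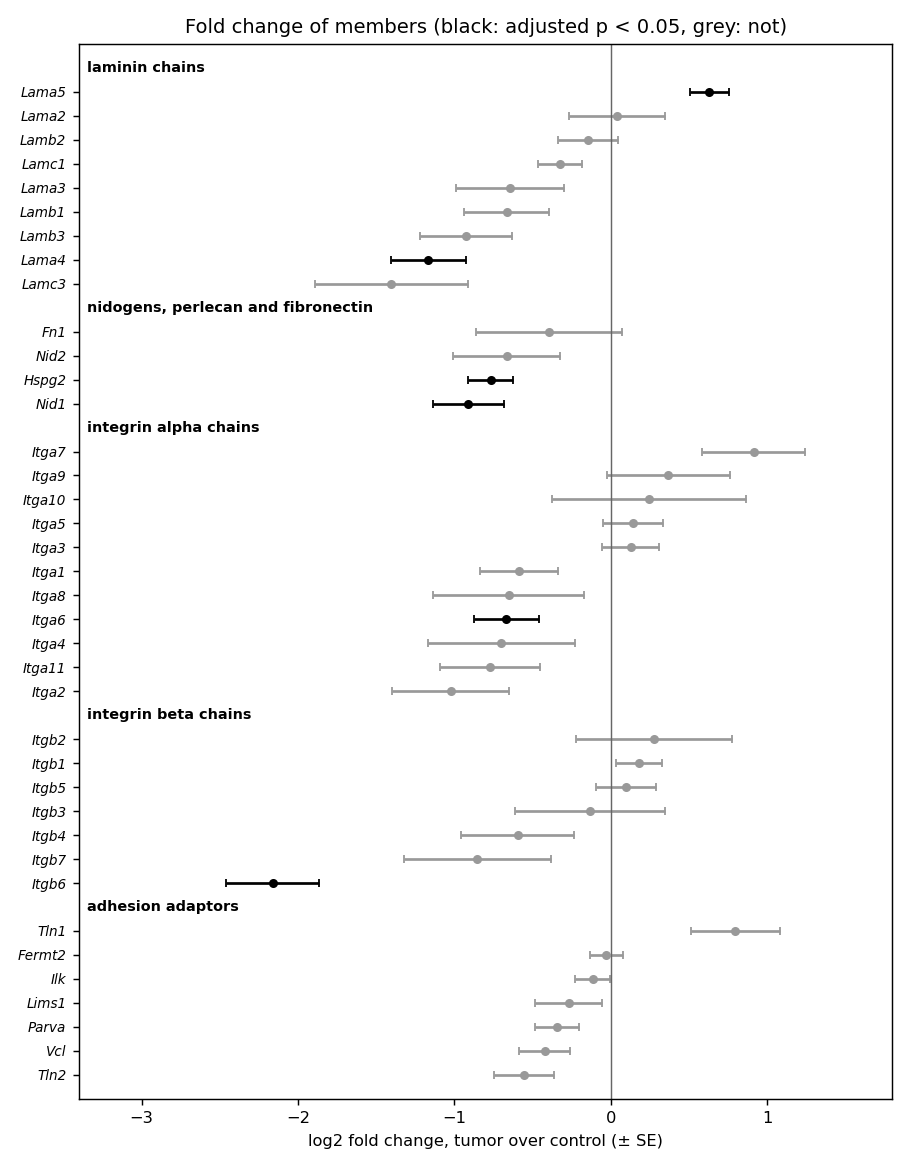
Log2 fold change of members in tumor over control muscle (points, x axis) with its standard error (bars), grouped by role down the page, black where the adjusted p was under 0.05 and grey otherwise. Itgb6 lies farthest to the left at -2.16, and Lama5 at 0.63 is the black point on the right of 0.

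The groups did not overlap in 11 members (28.2%, against 25.0% of all genes tested). Of the 11, 2 were higher and 9 lower (of all genes tested, 13.5% were higher and 11.5% lower without overlap). Besides the 6 called members these were Lama3, Lamb3, Itga2 and Tln2, all lower, and Itga7, higher, none of which passed the test. The counts of called members varied with the library left out, and so did the share called over all genes, 19.8% with all 8 libraries. Without control library 1 or control library 2, 3 members fell, with 7.75% and 9.58% of all genes called. Leaving out tumor library 3 or control library 3 gave 8.3% and 12.9% of all genes called. Without tumor library 2, 9 members were called, of which 8 fell (19.4% of all genes called). Without tumor library 1, 10 were called, of which 3 rose (19.8% of all genes called). Without tumor library 2 and control library 4 together, 8 members fell and 1 rose (20.7% of all genes called). The calls of Itgb6, Lama4, Hspg2 and Lama5 were kept in all 17 alternative fits.

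Some markers of the cells that share these basement membranes were lower in tumor mice too, where 8.73% of all genes fell. Of 8 endothelial markers, 4 fell and none rose, and Pecam1, Cdh5, Erg and Vwf did not pass. Kdr, the main VEGF receptor, was at 8.67 ± 4.13 CPM in tumor mice and 31.8 ± 9.38 CPM in controls, and Emcn at 2.65 ± 0.97 CPM in tumor mice and 7.01 ± 0.48 CPM in controls (SD, n = 4 each). The summed level of the 8 was 84.9 to 143 CPM in tumor libraries and 159 to 242 CPM in control libraries. Kdr and Emcn kept their calls in all 17 alternatives. Only 2 of the 8 markers fell without tumor library 3 or control library 1, fits that called 8.3% and 7.75% of all genes. Tie1 lost its call in 8 of the 17 alternatives.

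Of 8 markers of pericytes and smooth muscle 4 fell, but 2 without tumor library 3 and 1 without control library 1. These were Acta2 (log2 fold change -1.25 ± 0.26), Cspg4 (-1.003 ± 0.214), Notch3 (-0.95 ± 0.22) and Pdgfrb (-0.66 ± 0.19). Acta2 kept its call in all 17 alternatives, Cspg4 in 16, Notch3 in 15 and Pdgfrb in 9. The sums of the 8 markers were 384 to 579 CPM in tumor libraries and 437 to 620.0 CPM in controls. Abcc9 had the highest count of them and did not pass. Its log2 fold change was 0.38 ± 0.13, and those of the other 7 markers were below 0. Of 8 fibroblast markers 3 fell: Col3a1 (log2 fold change -2.04 ± 0.53), Pi16 (-1.84 ± 0.26) and Col1a2 (-1.44 ± 0.41). Pi16 kept its call in all 17 alternatives, but only 1 marker fell without tumor library 3 or control library 1, 2 or 3. Their sums were 582 to 1200.0 CPM in tumor libraries and 816 to 1330.4 CPM in controls. Gsn had the highest count of them and did not pass. Pdgfra and Dcn had log2 fold changes of 0.13 ± 0.16 and 0.04 ± 0.15. Those of Col1a1 and Lum were -1.60 ± 0.53 and -0.94 ± 0.44, and none of these 4 passed. None of the markers in these 3 lists was at 0 in all libraries. Their part in the falls of Lama4, Hspg2, Nid1, Itga6 and the type IV collagens was not tested.

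The stretches of genome before the start sites of the changed members are shown to set Itgb6, which fell most, beside members that fell less and the member that rose. RefSeq's table (GRCm38.p6) held start sites for 25 of the 39 members and for 4 of the 6 that changed, and Lama4 and Itga6 are named only. Each sequence is the 250 bases before a start site, read 5′ to 3′ on the gene's strand. Itgb6 has a pair of start sites, at chr2:60722604-60722853 and chr2:60673694-60673943 on the minus strand. Nid1 is at chr13:13437352-13437601 and Hspg2 at chr4:137468553-137468802, both on the plus strand, and Lama5 is at chr2:180225860-180226109 on the minus strand. Capitals mark matches, on either strand, to 4 motifs: the GC box GGGCGG, the E-box CANNTG, the TATA box TATAAA and the AP-1 motif TGANTCA.
Itgb6 first start site: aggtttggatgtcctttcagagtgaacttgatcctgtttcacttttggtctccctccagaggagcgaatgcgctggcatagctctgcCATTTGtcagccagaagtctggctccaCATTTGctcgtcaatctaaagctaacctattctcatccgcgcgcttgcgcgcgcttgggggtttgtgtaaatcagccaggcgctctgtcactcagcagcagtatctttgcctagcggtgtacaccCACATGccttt
Itgb6 second start site: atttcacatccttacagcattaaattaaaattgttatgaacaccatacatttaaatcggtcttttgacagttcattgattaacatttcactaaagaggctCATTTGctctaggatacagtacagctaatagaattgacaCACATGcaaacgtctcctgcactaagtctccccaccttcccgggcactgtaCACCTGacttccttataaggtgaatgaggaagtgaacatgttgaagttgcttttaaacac
Nid1: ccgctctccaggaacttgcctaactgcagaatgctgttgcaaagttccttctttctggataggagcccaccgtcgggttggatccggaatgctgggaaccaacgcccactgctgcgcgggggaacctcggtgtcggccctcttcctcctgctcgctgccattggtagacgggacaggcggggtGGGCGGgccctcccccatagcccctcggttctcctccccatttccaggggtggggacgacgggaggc
Hspg2: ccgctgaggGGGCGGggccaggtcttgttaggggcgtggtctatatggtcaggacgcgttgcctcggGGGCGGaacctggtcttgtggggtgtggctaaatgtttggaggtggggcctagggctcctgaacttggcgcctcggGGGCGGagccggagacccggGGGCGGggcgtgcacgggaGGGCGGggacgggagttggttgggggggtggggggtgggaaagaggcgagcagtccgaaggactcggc
Lama5: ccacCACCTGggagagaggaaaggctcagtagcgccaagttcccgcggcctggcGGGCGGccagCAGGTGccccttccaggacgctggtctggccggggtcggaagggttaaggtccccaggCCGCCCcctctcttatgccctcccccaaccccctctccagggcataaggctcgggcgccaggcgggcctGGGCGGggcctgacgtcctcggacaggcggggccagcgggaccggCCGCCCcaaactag

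Neither Itgb6 window held a GC box, whereas Hspg2 held 5, Lama5 4 and Nid1 1. Over all 32851 windows of this length, 32.7% held at least 1. E-boxes were found 3 times in each Itgb6 window and 2 times in the Lama5 window, and 66.2% of all windows held one. None of the 5 windows held the TATA box (12.4% of all windows) or the AP-1 motif (6.7%), and no match of one motif overlapped a match of another. The Itgb6 windows held 11 and 3 CG pairs, and those of Nid1, Hspg2 and Lama5 held 16, 20 and 19, where the median window held 6. GC boxes were thus present both before Lama5, which rose, and before Nid1 and Hspg2, which fell. Matches are a description of these letters and not evidence of binding.

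Among the laminin chains, 1 of the 10 tested rose, 1 fell and 8 did not pass. Lama4, which vascular basement membranes carry, was measured at 6.98, 7.76, 4.53 and 4.74 CPM in the 4 tumor libraries, against 15.2, 17.1, 9.35 and 12.1 CPM in the 4 control libraries. Every tumor library was below every control, with control library 3 nearest to the tumor values. The means were 6.00 ± 1.61 CPM in tumor mice and 13.5 ± 3.43 CPM in controls (SD, n = 4 each). On the log2 scale Lama4 fell by 1.17 ± 0.24 (SE, edgeR adjusted p = 0.0114). Lama5, which forms laminins of vessels and of the synaptic basement membrane, was at 33.3, 40.4, 38.7 and 44.6 CPM in tumor libraries, against 23.0, 24.7, 24.9 and 28.9 CPM in control libraries. Here all tumor libraries were above all controls. The means were 39.3 ± 4.66 CPM in tumor mice and 25.4 ± 2.52 CPM in controls (SD, n = 4 each). On the log2 scale Lama5 rose by 0.63 ± 0.12 (edgeR adjusted p = 0.00994). The difference was in opposite directions for these 2 alpha chains, and both calls held when any 1 library was left out (adjusted p up to 0.0441 for Lama4 and up to 0.0433 for Lama5).

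**Figure D2:**
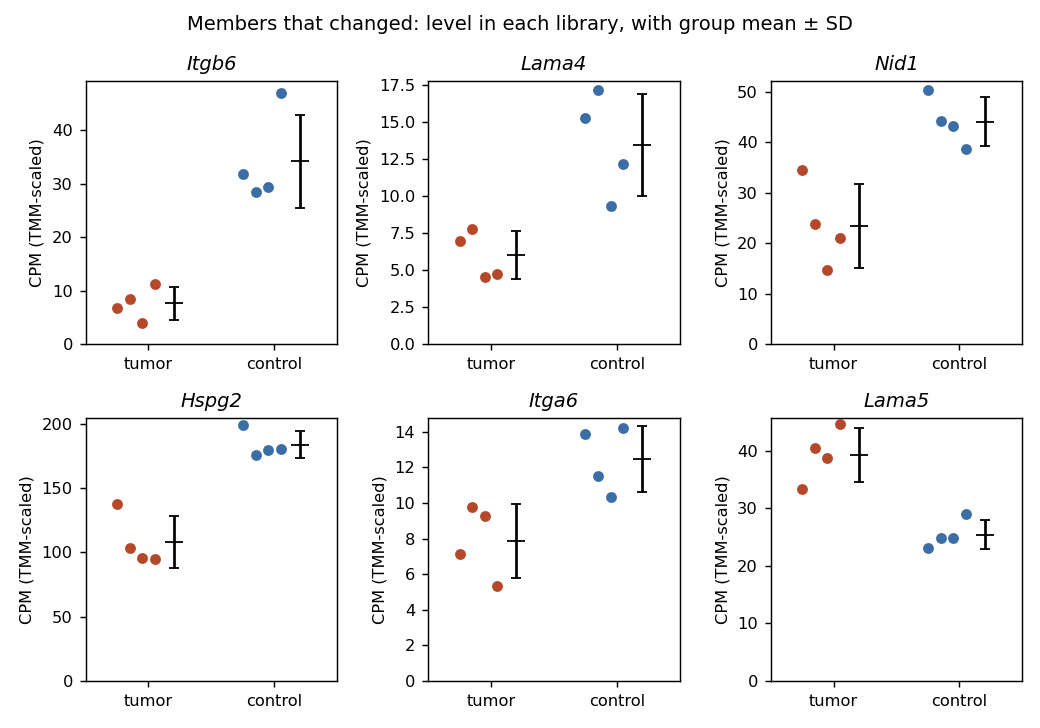
Level in CPM (y axis, from 0) of each of the 6 changed members in the 4 tumor libraries (left, red) and the 4 control libraries (right, blue), with the group mean and SD beside the points. In Itgb6, Lama4, Nid1, Hspg2 and Itga6 all tumor points lie below all control points, and in Lama5 all lie above.

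The other laminin chains did not pass. Lamb2, the beta 2 chain of the neuromuscular junction and of vessels, had the highest count of the laminins. It was at 116, 119.8, 72.9 and 73.0 CPM in tumor libraries, against 105, 95.6, 102 and 121 CPM in control libraries. Tumor libraries 1 and 2 lay among the controls and tumor libraries 3 and 4 below them (log2 fold change -0.15 ± 0.19, adjusted p = 0.621, edgeR). Lama2, whose loss causes a congenital muscular dystrophy, was at 43.8, 36.4, 31.3 and 13.6 CPM in tumor libraries, against 29.8, 22.8, 36.1 and 33.0 CPM in control libraries. Tumor library 4 was the lowest of the 8 libraries and tumor library 1 the highest, and the log2 fold change was 0.04 ± 0.31 (adjusted p = 0.942, edgeR). Its sign turned in some alternatives, among them upper-quartile scaling (-0.0356).

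Lamb1 and Lamc1, the beta and gamma chains that pair with the alpha 2 and alpha 4 chains, had log2 fold changes of -0.67 ± 0.27 and -0.33 ± 0.14 (adjusted p = 0.11 and adjusted p = 0.132, edgeR). Both passed without tumor library 2 (adjusted p = 0.0238 for Lamb1 and adjusted p = 0.0467 for Lamc1). Lama3, Lamb3 and Lamc3 were below 2 CPM in both group means. The log2 fold change of Lamb3 was -0.92 ± 0.29 (adjusted p = 0.0529), and it passed without tumor library 1 (adjusted p = 0.0332). That of Lamc3 was -1.40 ± 0.49 (adjusted p = 0.0716), and it passed without control library 4 (adjusted p = 0.0329). That of Lama3 was -0.65 ± 0.35 (adjusted p = 0.215).

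Levels of different chains can be set side by side only per length, taken here from the longest coding transcript of each gene. In CPM per kilobase, Lama5 stood at 3.45 ± 0.41, Lama2 at 3.25 ± 1.34 and Lama4 at 0.99 ± 0.27 in tumor mice, and Lama2 at 3.16 ± 0.59, Lama5 at 2.23 ± 0.22 and Lama4 at 2.23 ± 0.57 in controls (SD, n = 4 each). Of the summed level of the alpha chains in a library, Lama4 made up 10.1% to 14.7% in tumor libraries and 20.3% to 37.9% in control libraries. Lama5 made up 33.7% to 63.2% in tumor libraries and 26.1% to 31.2% in control libraries. For neither chain did the groups overlap in this share. The shares are made of the same CPM as the calls of both chains and are not a separate result. The share of Lama2 averaged 40.6% ± 12.6 in tumor mice and 40.8% ± 7.26 in controls, and it was lowest in tumor library 4 at 22.7%. Among beta chains Lamb2 made up 88.5% ± 1.36 in tumor mice and 83.8% ± 4.09 in controls.

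**Figure D3:**
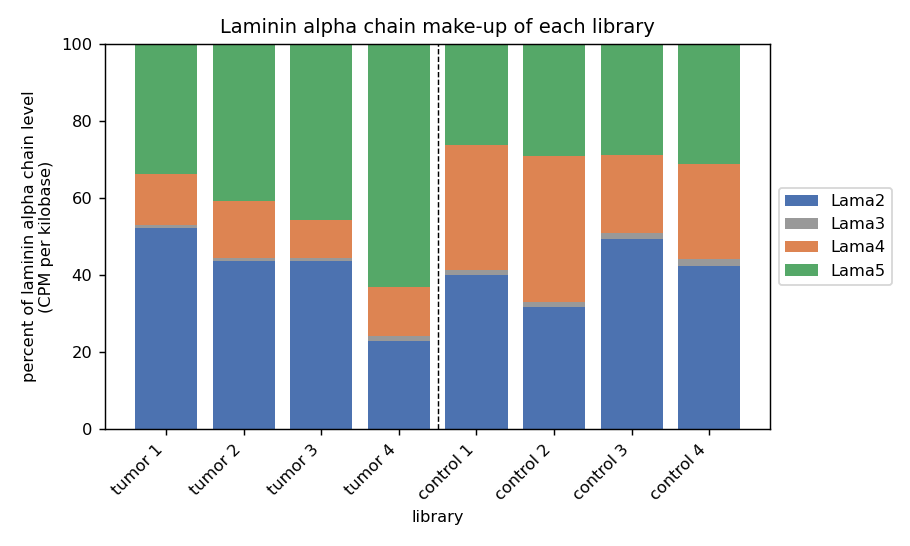
Make-up of the laminin alpha chain level in each library, as percent of the summed CPM per kilobase of Lama2, Lama3, Lama4 and Lama5 (stacked bars, 0 to 100%), tumor libraries left of the dashed line and control libraries right of it. The Lama4 band is 10.1% to 14.7% high in tumor libraries and 20.3% to 37.9% high in control libraries.

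Of the linkers, both nidogen 1 and perlecan fell, and nidogen 2 and fibronectin did not pass, where 8.73% of all genes fell. Hspg2, which stores growth factors on its heparan sulfate chains, was at 138, 103, 95.9 and 94.6 CPM in tumor libraries, against 199, 176, 179.6 and 180.2 CPM in control libraries. The highest tumor library was below the lowest control. The means were 108 ± 20.2 CPM in tumor mice and 184 ± 10.5 CPM in controls (SD, n = 4 each), and the fall on the log2 scale was -0.77 ± 0.14 (edgeR adjusted p = 0.00819). Nid1, the main bridge between laminin and type IV collagen, was at 34.5, 23.8, 14.6 and 20.9 CPM in tumor libraries, against 50.3, 44.2, 43.1 and 38.5 CPM in control libraries. Tumor library 1 came closest to the controls, and the groups did not overlap. The log2 fold change was -0.91 ± 0.23 (adjusted p = 0.0238, edgeR), and Nid1 was no longer called when control library 1 (adjusted p = 0.076) or control library 2 (adjusted p = 0.0596) was left out. Its log2 fold changes in those fits were -0.84 and -0.91.

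Nid2 was at 7.11, 2.73, 3.41 and 8.38 CPM in tumor libraries, against 7.59, 8.44, 10.9 and 7.39 CPM in control libraries, and the groups overlapped (log2 fold change -0.66 ± 0.34, adjusted p = 0.198, edgeR). Fn1, the fibronectin that alpha 5 beta 1 integrin binds, was at 36.2, 9.93, 74.8 and 34.5 CPM in tumor libraries, against 56.7, 38.2, 44.6 and 65.3 CPM in control libraries. Tumor libraries held both the lowest and the highest Fn1 value of the 8 (log2 fold change -0.40 ± 0.47, adjusted p = 0.583, edgeR).

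Of 11 integrin alpha chains, 1 fell and 10 did not pass (9.09% called, against 19.8% of all genes). Itga6, a laminin receptor chain of endothelium and Schwann cells, was at 7.11, 9.77, 9.25 and 5.31 CPM in tumor libraries, against 13.9, 11.5, 10.4 and 14.2 CPM in control libraries. The groups did not overlap, but tumor library 2 and control library 3 were close. The log2 fold change was -0.67 ± 0.21 (edgeR adjusted p = 0.0471). It did not pass without tumor library 1, 3 or 4 or without any 1 of the 4 controls (adjusted p from 0.0581 to 0.129), nor without a count filter (adjusted p = 0.051) or with the fibre covariate (adjusted p = 0.083).

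Itga7, the laminin-binding alpha chain of muscle fibres, had the highest level of the alpha chains. It was at 84.6, 93.3, 110.2 and 259 CPM in tumor libraries, against 76.5, 63.6, 67.9 and 82.5 CPM in control libraries. All tumor libraries were above all controls, and tumor library 4 stood far above the other three. The means were 137 ± 82.1 CPM in tumor mice and 72.6 ± 8.51 CPM in controls (SD, n = 4 each), and the difference, 0.91 ± 0.33 on the log2 scale, did not pass (edgeR adjusted p = 0.0794). Without tumor library 4 it was 0.40. Itga7 passed without tumor library 1 (adjusted p = 0.0479) and by DESeq2 (adjusted p = 0.0228). With another library left out, its edgeR adjusted p reached 0.174.

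The collagen-binding chains Itga1, Itga2, Itga10 and Itga11 had log2 fold changes of -0.59 ± 0.25, -1.02 ± 0.38, 0.24 ± 0.62 and -0.77 ± 0.32, and none passed (adjusted p from 0.0826 to 0.815, edgeR). Itga1 passed without tumor library 2 (adjusted p = 0.0385) and Itga11 without tumor library 1 (adjusted p = 0.0403). With another library left out, the edgeR adjusted p reached 0.278 for Itga1 and 0.251 for Itga11. Itga4, which pairs with beta 1 or beta 7 on leukocytes and progenitor cells, was at 20.8, 4.35, 12.6 and 16.8 CPM in tumor libraries, against 23.1, 27.2, 29.6 and 8.55 CPM in control libraries. The low values were those of tumor library 2 and control library 4, the libraries with the lowest Myh4 ratio. With that ratio as a covariate the log2 fold change of Itga4 was -1.23 (adjusted p = 0.0178), against -0.70 ± 0.47 without it (adjusted p = 0.32). It also passed without those 2 libraries (adjusted p = 0.0374). Itga3, Itga5, Itga8 and Itga9 had log2 fold changes from -0.65 to 0.37 (adjusted p from 0.369 to 0.665). Itga9 was 12.9 CPM in tumor library 4 and 3.18 to 5.41 CPM in the other libraries.

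Of 7 integrin beta chains, Itgb6 fell and 6 did not pass (14.3% called, against 19.8% of all genes). The beta 6 chain pairs with the alpha V chain and is known from epithelia, where it activates latent TGF-beta. Itgb6 was at 6.81, 8.50, 3.95 and 11.2 CPM in tumor libraries, against 31.9, 28.5, 29.4 and 47.0 CPM in control libraries. The highest tumor library was below the lowest control by more than the SD of either group, at 3.05 CPM in tumor mice and 8.67 CPM in controls. The means were 7.62 CPM in tumor mice and 34.2 CPM in controls (n = 4 each). The log2 fold change was -2.16 ± 0.30 (edgeR adjusted p = 0.00355), and without any 1 library it lay between -2.42 and -1.95. Neither of its windows printed above holds a GC box.

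Itgb1, the common partner of most laminin and collagen receptors, had the highest count of all integrin chains. It was at 194, 182, 210.1 and 257 CPM in tumor libraries, against 174, 162, 203 and 204 CPM in control libraries. The groups overlapped, and the difference of 0.18 ± 0.15 on the log2 scale did not pass (edgeR adjusted p = 0.407). Itgb5, a partner of alpha V, was at 67.9 to 116 CPM in tumor libraries and 75.2 to 116 CPM in control libraries (log2 fold change 0.10 ± 0.19, adjusted p = 0.763). Itgb2, the leukocyte chain, lay at 0.94 to 5.43 CPM in tumor libraries and 1.46 to 4.46 CPM in controls. The laminin receptor chain Itgb4, the platelet chain Itgb3 and the lymphocyte chain Itgb7 had log2 fold changes of -0.60 ± 0.36, -0.14 ± 0.48 and -0.85 ± 0.47, and none passed.

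Set per length, the order of the beta chains in tumor mice was Itgb1 at 55.2 ± 8.55 CPM per kilobase, Itgb5 at 30.4 ± 6.75 and Itgb6 at 1.59 ± 0.63 (SD, n = 4). In controls it was Itgb1 at 48.7 ± 5.45, Itgb5 at 28.4 ± 5.34 and Itgb6 at 7.11 ± 1.81 CPM per kilobase. Itgb2 came next, at 1.13 ± 0.65 in tumor mice and 0.93 ± 0.42 in controls, so that in tumor mice Itgb6 and Itgb2 did not differ beyond these SDs. Among alpha chains Itga7 led at 34.0 ± 20.4 CPM per kilobase in tumor mice and 18.1 ± 2.12 in controls. Itga6 followed at 1.82 ± 0.48 in tumor mice and 2.90 ± 0.43 in controls, close to Itga5 (1.53 ± 0.29 in tumor mice) and Itga4 (2.27 ± 0.97 in controls), from which it did not differ beyond these SDs.

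None of the 7 adhesion adaptors passed, where 19.8% of all genes did, and 7 genes are too few to read this as a difference. The unadjusted edgeR p was under 0.05 in 4 of the 7, against 35.0% of all genes. Fermt2 (kindlin 2), which binds the tails of integrin beta chains, had the highest level per length of all members, at 64.8 ± 2.44 CPM per kilobase in tumor mice and 66.1 ± 3.22 in controls (SD, n = 4 each). In CPM it was at 217, 201, 218 and 216 in tumor libraries, against 210.5, 229, 224 and 207 in control libraries. The groups overlapped and the values spread little (log2 fold change -0.03 ± 0.11, adjusted p = 0.869, edgeR). Ilk, Parva and Lims1, which form the complex of ILK, parvin and PINCH, had log2 fold changes of -0.12 ± 0.11, -0.34 ± 0.14 and -0.27 ± 0.21 (adjusted p from 0.115 to 0.504). For Vcl (vinculin), which reinforces talin under tension, it was -0.42 ± 0.16 (adjusted p = 0.0946) and passed without tumor library 4 (adjusted p = 0.0387). With another library left out, the edgeR adjusted p of Vcl reached 0.231.

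The 2 talins, which link integrin tails to actin, had fold changes of opposite sign. Tln1, the form that most cell types express, was at 101, 147, 160.0 and 301 CPM in tumor libraries, against 95.2, 101, 96.9 and 116 CPM in control libraries. Tumor libraries 2, 3 and 4 were above all controls and tumor library 1 was among them. Tln2, the form prominent in striated muscle, was at 137, 77.0, 122 and 84.9 CPM in tumor libraries, against 142, 163, 142 and 172 CPM in control libraries, and all tumor libraries were below all controls. The log2 fold changes were 0.80 ± 0.29 for Tln1 (adjusted p = 0.0781) and -0.56 ± 0.19 for Tln2 (adjusted p = 0.0682), and neither passed in the edgeR test. Both passed without tumor library 1 (adjusted p = 0.0254 for Tln1 and adjusted p = 0.0293 for Tln2) and by DESeq2 (adjusted p = 0.0278 and adjusted p = 0.0295), and Tln2 also passed with the fibre covariate (adjusted p = 0.0392). Without tumor library 4 the log2 fold change of Tln1 was 0.41. With 1 library left out, the edgeR adjusted p reached 0.177 for Tln1 and 0.149 for Tln2.

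Ratios of 2 members within a library do not depend on how libraries are scaled, and 6 such ratios were compared. The log2 ratio of Tln1 to Tln2 was -0.44, 0.93, 0.39 and 1.83 in tumor libraries, against -0.58, -0.69, -0.55 and -0.57 in control libraries. The controls lay close together, and every tumor library was above them. The difference of the means was 1.27 (two-sided exact permutation p = 0.0286, the smallest that 4 against 4 libraries allow, adjusted p = 0.0857 over the 6 ratios). The log2 ratio of Itga6 to Itga7 was -3.57, -3.25, -3.57 and -5.60 in tumor libraries, against -2.46, -2.46, -2.71 and -2.54 in control libraries. All tumor libraries were below all controls (difference -1.45, exact permutation p = 0.0286, adjusted p = 0.0857), and without tumor library 4 the difference was -0.92. Every tumor library was already lower in Itga6 and higher in Itga7 than every control. The separation of this ratio was therefore fixed, and its p adds no support.

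The log2 ratio of Lama4 to Lama2 was -2.64, -2.22, -2.78 and -1.51 in tumor libraries, against -0.96, -0.41, -1.94 and -1.44 in control libraries, and the groups overlapped (difference -1.10, exact permutation p = 0.0571, adjusted p = 0.114). Those of Lamb1 to Lamb2, Itga5 to Itga7 and Nid1 to Nid2 differed by -0.52, -0.62 and -0.17, and their groups overlapped as well (exact permutation p from 0.114 to 0.714). Without tumor library 4 the difference for Itga5 to Itga7 was -0.20. None of the 6 ratios passed after adjustment, which this number of libraries allows only where at least 4 of the 6 reach the smallest p.

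**Figure D4:**
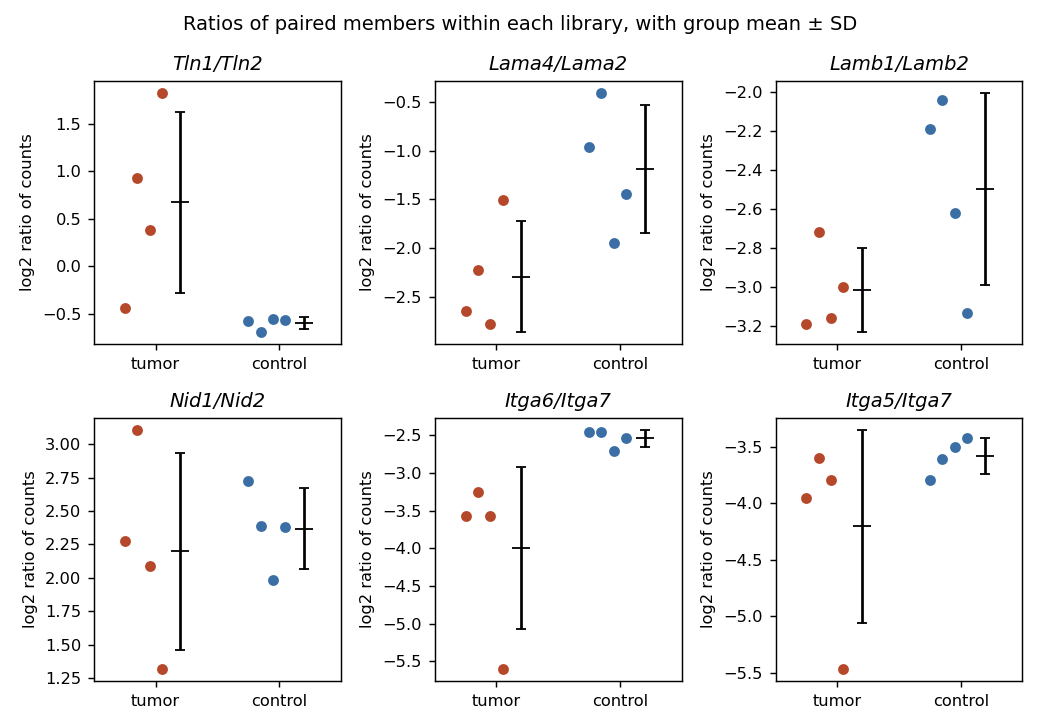
Log2 ratio of the counts of 2 members within each library (y axis, its own range in each panel) for 6 pairs, tumor libraries left in red and control libraries right in blue, with the group mean and SD beside the points. Tumor and control points do not overlap for Tln1/Tln2, where tumor libraries lie higher, and for Itga6/Itga7, where they lie lower.

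The members varied more between tumor mice than between controls. The coefficient of variation was larger in the tumor group for 35 of the 39 members (89.7%, against 67.8% of all genes tested), with medians of 29.7% in tumor mice and 18.7% in controls (over all genes 22.6% in tumor mice and 16.6% in controls). Tumor library 4 was the highest of its group in 15 of the 39 members, among them Itga7, Itga9, Tln1, Itgb1 and Vcl. Tumor libraries 2 and 3 were each the lowest in 13. Among controls, library 4 was the highest in 20 and library 2 the lowest in 15.

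**Figure D5:**
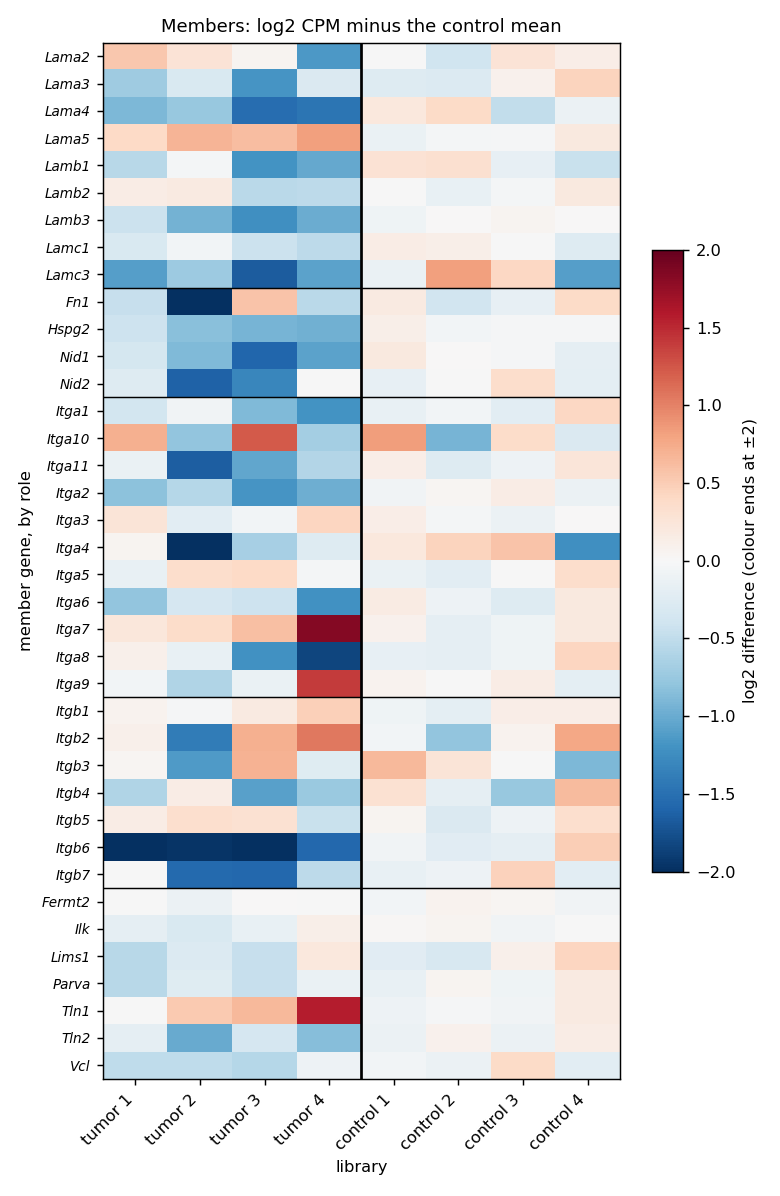
Log2 CPM of members (rows, by role) in each of the 8 libraries (columns, tumor left of the line), as the difference from the mean of the 4 control libraries, with colours ending at 2 on either side. Itgb6 is blue in all 4 tumor libraries, and Itga7 and Tln1 are darkest red in tumor library 4.

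Other genes of the basement membrane fell alongside Hspg2 and Nid1. Of 12 tested genes for type IV and vascular collagens and their binding proteins, 5 fell and none rose (41.7%, against 8.73% of all genes lower), with a median log2 fold change of -0.81. Col4a1 and Col4a2, the chains of the common type IV collagen, fell to 47.7 ± 14.8 and 44.5 ± 12.8 CPM in tumor mice, against 117 ± 13.0 and 96.4 ± 8.91 CPM in controls (SD, n = 4 each). Their log2 fold changes were -1.30 ± 0.21 and -1.12 ± 0.20 (adjusted p = 0.00499 and adjusted p = 0.00662, edgeR). Col15a1, a basement membrane collagen of muscle and capillaries, fell 5.25-fold, and Sparc, a collagen-binding matrix protein, 1.76-fold. The fifth was Col18a1, named after its values were seen, which fell 1.8-fold. The count was 3 without tumor library 3, control library 1 or control library 2, fits that called 8.3%, 7.75% and 9.58% of all genes. These fits recur in the lists below. Sparc lost its call without those libraries or control library 3 (edgeR adjusted p from 0.0699 to 0.0936). Its log2 fold change lay between -0.83 and -0.75 in those fits, against -0.82 with all libraries.

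Of 19 genes of the dystroglycan and sarcoglycan complex and its partners, which bind laminin independently of integrins, 1 rose and 4 fell (26.3% called, against 19.8% of all genes), with a median log2 fold change of -0.02. Dmd (dystrophin) rose to 186 ± 41.4 CPM in tumor mice, against 111 ± 17.4 CPM in controls (log2 fold change 0.74 ± 0.18, adjusted p = 0.0217, edgeR). Sspn (sarcospan) fell 1.61-fold and Cav3 (caveolin 3) 1.73-fold. Bcam and Dag1 are named after their values were seen. Bcam, a receptor for the laminin alpha 5 chain, fell 1.62-fold (adjusted p = 0.0299), and Dag1, which encodes dystroglycan, did not pass, at -0.12 ± 0.15 on the log2 scale (adjusted p = 0.601). Dmd was not called without tumor library 3 or control library 1, 2 or 3 (adjusted p from 0.0525 to 0.0744), and the lower genes were 1 without tumor library 3 and 2 without control library 1. Cav3 was not called without tumor library 3 or control library 1 or 3 (adjusted p up to 0.0677).

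Of 30 tested partners of the focal adhesion, 5 rose and 4 fell (30.0% called, against 19.8% of all genes), with a median log2 fold change of -0.25. Itgb1bp2 (melusin), a muscle protein that binds the tail of the integrin beta 1 chain, fell 3.99-fold, to 30.4 ± 15.9 CPM in tumor mice, against 121 ± 10.1 CPM in controls (edgeR adjusted p = 0.00436). Pxn (paxillin), a scaffold of the adhesion, rose 1.67-fold, and Tns3 (tensin 3) 1.55-fold. Flnc (filamin C), an actin crosslinker of muscle that binds integrin tails and Z-discs, rose to 1934 ± 831 CPM in tumor mice, against 753 ± 222 CPM in controls, and its groups overlapped. The counts were 2 higher and 1 lower without tumor library 3, control library 1 or control library 2. They were 2 higher without control library 3 and 2 lower without control library 4, and Flnc was not called without tumor library 3 or control library 1, 2 or 3 (adjusted p from 0.0547 to 0.0834).

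Of 18 tested genes for other ligands of integrins, 2 rose and 7 fell, so that 9 of 18 were called where 19.8% of all genes were, with a median log2 fold change of -0.69. Vtn (vitronectin), a ligand of alpha V integrins, fell 2.66-fold and Egfl7, a matrix protein of endothelium, 1.6-fold. Ccn1, a matricellular protein, rose 2.84-fold, to 53.5 ± 4.35 CPM in tumor mice, against 18.9 ± 7.86 CPM in controls. Spp1 (osteopontin) rose 11.4-fold from low counts, to 9.76 ± 6.23 CPM in tumor mice, against 0.86 ± 0.66 CPM in controls, and its groups overlapped. Spp1 was not called by limma-voom (adjusted p = 0.0663). The lower genes were 3 without tumor library 3 or control library 1 and 4 without control library 2.

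In the other marker lists at most 1 gene passed, and most of these calls were lost in some fits with 1 library left out. Some of these fits called fewer of all genes too, 7.75% without control library 1 against 19.8% with all libraries. Of 6 tested leukocyte markers S100a8 was called higher, at 1.30 ± 0.79 CPM in tumor mice and 0.13 ± 0.19 CPM in controls. Its groups overlapped, and it lost the call in 10 of the 16 alternatives that tested it (adjusted p up to 0.105). The sums of the leukocyte markers were 24.9 to 96.4 CPM in tumor libraries and 37.5 to 72.7 CPM in controls. Of 6 Schwann cell markers Ngfr rose, and it was not called without tumor library 3 (adjusted p = 0.056) or control library 1 (adjusted p = 0.0587). Of 4 tested satellite cell markers Vcam1 fell, and it lost the call in 11 of 17 alternatives, among them each control library left out (adjusted p up to 0.123). The platelet markers summed to 0.78 to 7.15 CPM in tumor libraries and 2.45 to 4.46 CPM in controls. Of 8 muscle fibre markers Acta1, the skeletal muscle actin, fell to 10635 ± 5029 CPM in tumor mice, against 25033 ± 2919 CPM in controls. Acta1 lost the call in 7 of 17 alternatives, among them each control library and tumor library 2 or 3 left out (adjusted p up to 0.104).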

How the data were processed

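The authors deposited 1 table of estimated counts per gene symbol with 1 column per library, and 9% of its values were not whole. Salmon 1.10.1, STAR 2.7.9a, R 4.2.2, Trim Galore 0.6.7, cutadapt 3.4 and genome build GRCm39 are named, per the submitters' processing notes, without their roles. Annotation and strand setting were not stated in these sources. An estimated count divides reads that match several genes by likelihood, so related chains share some uncertainty. Columns were matched to libraries by library name and libraries to groups by title. No pair of libraries within a group agreed within counting noise, and all 8 entered the tests.

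Counts were rounded, filtered with the edgeR function filterByExpr (minimum count 10; 14070 genes with 99.92% of counts) and scaled by TMM. Groups were compared with the edgeR quasi-likelihood test (edgeR 4.0.16, limma 3.58.1, R 4.3.3) without covariates, two-sided, with Benjamini-Hochberg adjustment over all genes and a threshold of 0.05. The standard error is the log2 fold change over the square root of F. CPM are TMM-scaled. Ratios used counts plus 1 and exact permutation over 70 splits. Lengths came from GENCODE M21 and start sites from RefSeq, both on GRCm38, matched by symbol. The steps were tested on simulated data.

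Members, lists, ratios and alternatives were chosen with earlier results of these data known. Per-library values were given for members that changed, for the most abundant of each role and, added after the values were seen, for Lama2, Nid2, Fn1, Itga4, Tln1 and Tln2. Of each other list up to 4 called genes with the smallest p were named. Alternatives were DESeq2 size factors, upper-quartile scaling, no or a stricter count filter (1 CPM in every library of 1 group, mean count 50), DESeq2 1.42.0, limma-voom, the replicate number as a block, the Myh4 ratio as a fibre covariate, and libraries left out. The counts of members and of 1 other list each include 1 gene whose values are not reported here.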

Additional observations from a re-analysis of the deposited data

Results flagged for a closer look

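A library is named here where its gap to the nearest of its group exceeded the 95% limit of Dixon's test for 4 values. Of 122 groups tested (members, named genes of other lists and ratios), 5 passed it, and chance alone passes about 1 in 20. The log2 ratio of Itga6 to Itga7 was -5.60 in tumor library 4, where the other tumor mice had -3.57 to -3.25. Vcl was at 6.10 on the log2 CPM scale in tumor library 4, and the rest of the group at 5.63 to 5.69. Fermt2 was at 7.65 in tumor library 2, and the rest of the group at 7.76 to 7.77, a gap of small size. Itga8 was at 0.49 in control library 4 and at -0.11 to -0.01 in the other controls. Itgb7 was at 0.39 in control library 3 and at -0.28 to -0.17 in the other controls. Both are low genes, with fewer than 50 counts in every library.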

How the results depend on the processing

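Log2 fold changes of Itgb6, Lama4, Hspg2 and Lama5 kept their direction and call in all 17 alternatives (for Itgb6 from -2.42 to -1.95), that of Nid1 in 15 and that of Itga6 in 6. The median of the members lay between -0.47 and -0.36. Leaving out 1 library gave 630 to 1551 higher and 480 to 1450 lower genes over all genes, 1 to 3 higher and 3 to 8 lower members, 3 to 5 lower basement membrane genes, 0 to 2 higher and 1 to 5 lower genes of the dystroglycan list, 2 to 5 higher and 1 to 4 lower focal adhesion partners, and 3 to 8 lower ligands. DESeq2 called 10 members, 3 of them higher, and 2 higher genes of the dystroglycan list, with 13.4% of 25972 genes called. Without tumor library 2 and control library 4, 8 members were lower (20.7% of all genes called). Upper-quartile scaling gave 7 lower focal adhesion partners, the fibre covariate 2, and limma-voom 1 higher ligand.

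Deviations of same-numbered libraries correlated at 0.03, 0.13, 0.20 and 0.02, so the numbers were not taken to pair mice. With the replicate number as a block, 1014 genes were higher over all genes, and 13.7% of all genes were called. In that fit 1 member rose and 5 fell, with 0 higher genes of the dystroglycan list and 3 higher and 2 lower focal adhesion partners. Under the block Lamb1 passed (adjusted p = 0.0291) and Itga6 did not (adjusted p = 0.0956). Signs turned only for members that did not pass. Lama2 was at -0.0356 with upper-quartile scaling, -0.0705 with limma-voom, -0.0509 with the block, -0.00666 without tumor library 2 and control library 4, and between -0.17 and 0.28 with 1 library left out. Fn1 was 0.0544 without those 2 libraries, and Itga10 was -0.28 with the fibre covariate. With 1 library left out, the lowest and highest values were -0.26 and 0.61 for Itga10, -0.00745 and 0.19 for Itga3, -0.27 and 0.56 for Itga9, -0.0670 and 0.60 for Itgb2, -0.50 and 0.12 for Itgb3, and -0.0162 and 0.24 for Itgb5. The difference in the log2 ratio of Nid1 to Nid2 lay between -0.47 and 0.12. The causes of these shifts were not tested. Members under 2 CPM in both groups (9, none called) had 6 to 91 counts per library, which limits the precision of their fold changes.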
